A study of Mus musculus with 8 samples.

Results

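The 7 genes described here encode surface proteins that are used to recognise leukaemia stem cells or to target them with drugs: Cd96, Havcr2, Il1rap, Cd33, Cd47, Cd93 and Clec12a. They were picked by symbol from the 55291 genes of a bulk RNA sequencing count table, and all 7 were found there and tested. The cells were leukaemic granulocyte-macrophage progenitors (L-GMP) from bone marrow of mice with acute myeloid leukaemia (AML), in which the fusion oncogene MLL-AF9 drives the disease in both groups. The sort kept c-Kit+ CD34+ CD16/32+ cells that lacked lineage markers and Sca-1. The KO group (4 libraries) had the genotype Dekfl/fl,MX1-Cre and the FL group (4 libraries) had Dekfl/fl alone, floxed alleles of the chromatin protein DEK without the recombinase. The Mx1 promoter that drives Cre responds to interferon, and neither an inducing agent, an age nor the way MLL-AF9 was introduced is given in the sources used here. MX1-Cre was present in KO mice only, and its own effect cannot be told apart from that of Dek loss. No source used here states that each library is a separate mouse, so p-values measure the spread between libraries, which may be technical.

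Leukaemia stem cells share much of their surface with normal progenitors and are told apart by proteins that are higher on the leukaemic cells. CD47 binds SIRP-alpha on macrophages and restrains phagocytosis. CD33, a sialic acid-binding lectin, and CLEC12A, a C-type lectin receptor also called CLL-1, are myeloid receptors targeted by antibodies in human AML. CD96 and TIM-3, the product of Havcr2, are receptors of T and NK cells that were described on human AML stem cells. IL1RAP is the shared co-receptor for interleukins 1, 33 and 36, and CD93 is a C-type lectin-like protein described on human MLL-rearranged AML stem cells.

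In KO L-GMP, Cd96 and Il1rap rose, Clec12a, Cd47 and Cd33 fell, and Cd93 and Havcr2 did not pass the test. Cd96 had the largest difference of the 7, 7.40-fold higher in KO, against 1.5-fold for Il1rap. The falls were 1.61-fold for Clec12a, 1.86-fold for Cd47 and 1.90-fold for Cd33. These calls are from edgeR's quasi-likelihood test on the counts with TMM scaling (trimmed mean of M values) and a Benjamini-Hochberg adjusted p under 0.05 over 17418 genes, of which 27.9% were called, 13.0% higher and 14.9% lower in KO. That is 5 of 7 members called, against 27.9% of all genes; the members are few and were chosen with results known, so no test is given for that count. For 4 of 7 the libraries of the groups did not overlap (Cd96 and Il1rap higher, Clec12a and Cd47 lower), as for 30.9% of all genes, 15.1% higher and 15.8% lower. The scaling matters for the falls: with total-count scaling the median log2 fold change of all genes moves up by 0.59, and 3 members were then called higher (Cd96, Il1rap and Cd93) and 0 lower. Of all genes 56.8% were called under that scaling, 51.7% higher and 5.09% lower. Without KO replicates 2 and 3, 1 member was called, Cd96, as were 12.8% of all genes (5.44% higher and 7.31% lower).

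**Figure D1:**
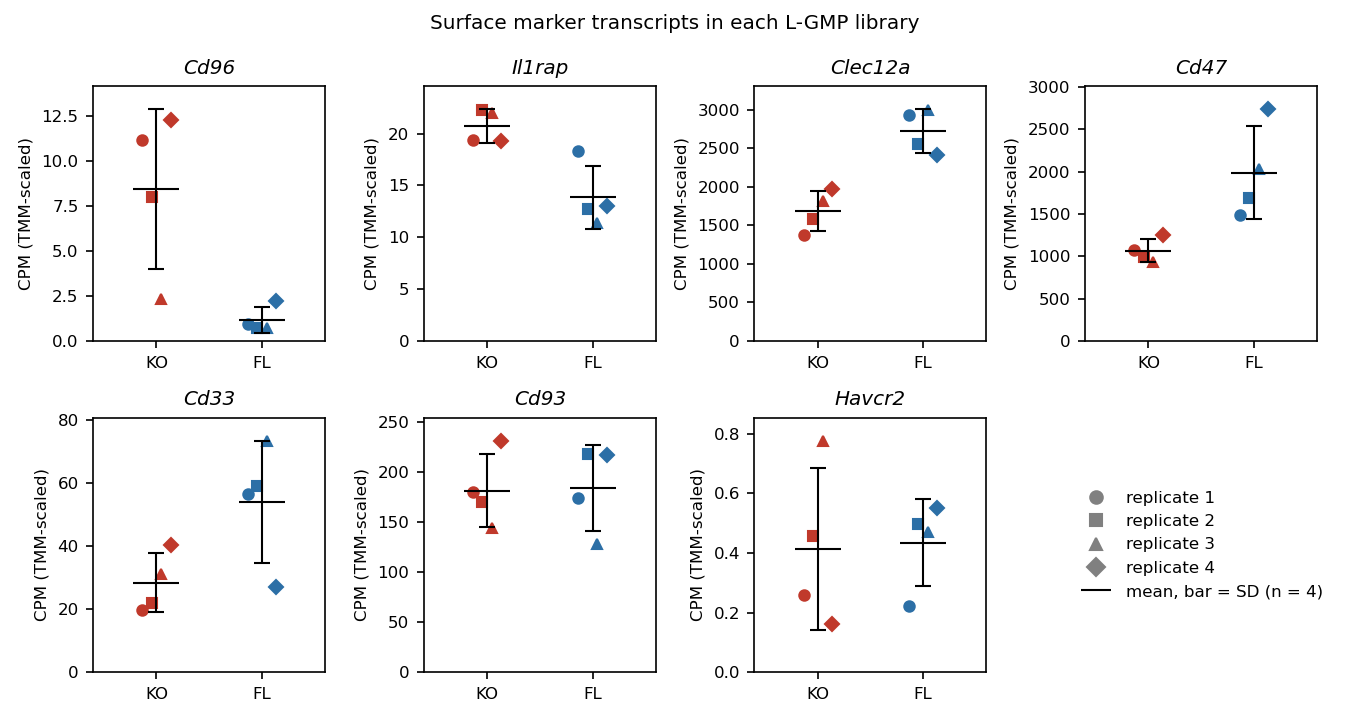
Level of each surface marker transcript in CPM (counts per 1000000 counts, scaled by TMM factors; y axis, from 0) in the 4 KO and 4 FL libraries (x axis). Symbols mark the replicate, black bars the mean and SD. KO libraries of Cd96 and Il1rap lie above all FL libraries, those of Clec12a and Cd47 below all, and Cd33, Cd93 and Havcr2 overlap.

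Libraries held 33941940 to 49736592 counts in KO and 44086524 to 58660705 in FL. The number of genes detected was 30606 to 37801 in KO and 24125 to 26053 in FL, so breadth follows the groups. Dek averaged 22.5 ± 6.03 CPM in KO and 151.7 ± 22.7 CPM in FL (SD, n = 4 each), and Pbx3, the homeobox gene named in the series title, 0.749 ± 0.386 CPM in KO and 32.4 ± 3.14 CPM in FL; both were called lower in KO (edgeR adjusted p = 1.7e-05 and 1.5e-05). Of 10 progenitor and sort genes tested, 2 rose and 3 fell with TMM scaling, and 5 rose and 0 fell under total-count scaling. Shares of all genes called higher and lower were 13.0% and 14.9% with TMM, and 51.7% and 5.09% under total-count scaling. The sort antigen gene Kit rose to 107 to 172 CPM in KO, against 77.3 to 104 CPM in FL, while Cd34 fell to 374 to 501 CPM in KO, against 625 to 785 CPM in FL. Fcgr3, which encodes CD16, fell to 362 ± 83.8 CPM in KO, against 644 ± 162 CPM in FL, and the granule enzyme gene Ctsg also fell. Ly6a, the Sca-1 gene, rose to 1.64 ± 0.871 CPM in KO, against 0.342 ± 0.240 CPM in FL. The granule enzyme genes Mpo and Elane overlapped between the groups and were not called, at 10395 to 13686 and 8907 to 10660 CPM in KO and at 5484 to 15474 and 5564 to 11931 CPM in FL. KO replicates 2 and 3 stood apart in eosinophil markers (summed level of 9 genes 938 and 1348 CPM, against 287 and 299 CPM in the other KO libraries and 121 to 227 CPM in FL). KO replicate 3 also stood apart in neutrophil markers (9 genes, 2446 CPM, against 168 to 371 CPM in the other KO libraries and 98.3 to 715 CPM in FL). Of the other summed marker lists, B cell (8 genes) was at 454 to 638 CPM in KO and 322 to 692 in FL, erythroid (8 genes) at 4.48 to 35.1 and 2.51 to 4.90, and megakaryocyte (7 genes) at 6.26 to 12.2 and 9.22 to 14.8. Their most abundant genes were Ighm, Hba-a1 and Itga2b in turn. By gene, 1 of 4 tested B cell markers rose and 1 fell. For erythroid markers 3 of 5 rose and 0 fell, and for megakaryocyte markers 2 of 4 rose and 1 fell. Mast cell and basophil markers (8 genes) were at 65.5 to 106 CPM in KO and 148 to 308 in FL, with 2 of them at 0 in FL. Cpa3 was the most abundant of these, and of 4 tested 1 rose and 2 fell. In bulk RNA, fewer cells of a type and less RNA per cell cannot be told apart.

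The stretches before the RefSeq transcription starts of 3 members are shown because they are the largest rise (Cd96) and a pair of falls in myeloid lectin receptors (Clec12a and Cd33). Each is the 250 bases before the RefSeq start (GRCm38.p6), written 5' to 3' on the gene's strand, with matches to 5 motifs in capitals. Cd96 is from chr16:46120249-46120498 (minus strand), Clec12a from chr6:129349994-129350243 (plus strand) and Cd33 from chr7:43533172-43533421 (minus strand). The Clec12a and Cd33 windows lie within the GENCODE gene spans given with their values, because GENCODE also lists transcripts that start further upstream.
Cd96: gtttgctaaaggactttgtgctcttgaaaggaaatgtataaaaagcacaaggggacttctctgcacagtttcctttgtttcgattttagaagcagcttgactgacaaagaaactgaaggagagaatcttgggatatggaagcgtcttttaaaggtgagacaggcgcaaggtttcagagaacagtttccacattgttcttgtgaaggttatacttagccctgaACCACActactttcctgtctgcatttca
Clec12a: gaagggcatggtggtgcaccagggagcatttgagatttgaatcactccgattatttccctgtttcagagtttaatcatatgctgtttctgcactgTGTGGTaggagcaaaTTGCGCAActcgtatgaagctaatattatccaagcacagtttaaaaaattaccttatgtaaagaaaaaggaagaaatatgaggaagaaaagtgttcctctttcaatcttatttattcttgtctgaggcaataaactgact
Cd33: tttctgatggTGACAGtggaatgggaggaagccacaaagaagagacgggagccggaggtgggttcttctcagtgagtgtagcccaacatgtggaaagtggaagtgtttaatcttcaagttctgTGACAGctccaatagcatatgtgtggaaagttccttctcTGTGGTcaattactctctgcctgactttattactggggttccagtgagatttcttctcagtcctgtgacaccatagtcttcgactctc

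The motifs, searched on both strands, were TTGCGCAA (C/EBP), GAGGAAGT (PU.1), TGTGGT (RUNX), TGACAG (MEIS) and TGATTNAT (PBX-HOX), and no matches overlapped each other. Clec12a held the C/EBP palindrome at bases -140 to -133 before the start, letters found in 0.17% of 27025 promoters of the same length, and a RUNX match at -155 to -150. Cd96 held a RUNX match on the opposite strand at -28 to -23 (14.2% of promoters hold those letters). In Cd33 there were MEIS matches at -240 to -235 and -127 to -122 (16% of promoters) and a RUNX match at -88 to -83. Havcr2 held a PU.1 match at -8 to -1 (2.44% of promoters), a RUNX match at -46 to -41 and a PBX-HOX match at -200 to -193 (2.99% of promoters). Il1rap and Cd47 held none of the 5 motifs in these windows, but had 30 CG dinucleotides each, against 3 each in Cd96, Clec12a and Cd33, 2 in Havcr2 and a median of 6 over all promoters. RefSeq entries were matched for 6 of the 7 members, Cd93 being the exception, and a match of letters is a description of the window only.

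Per length of exon, the 7 transcripts spanned more than 3 orders of magnitude in each group. Clec12a led with 305 ± 46.9 CPM per kb in KO and 492 ± 51.3 CPM per kb in FL, above 99.4% and 99.1% of the tested genes. Cd47 followed at 170.0 ± 22.1 CPM per kb in KO and 317 ± 87.6 CPM per kb in FL, and Cd93 at 27.2 ± 5.48 and 27.6 ± 6.38 CPM per kb. The lower ranks differed between the groups: in KO, Cd96 (3.87 ± 2.04 CPM per kb) and Cd33 (3.66 ± 1.22) overlapped and had higher means than Il1rap (1.82 ± 0.14), although Cd96 in KO replicate 3 (1.08) lay below every KO library of Il1rap. In FL the order was Cd33 (6.97 ± 2.5 CPM per kb), Il1rap (1.22 ± 0.27) and Cd96 (0.52 ± 0.33), the last pair overlapping. Havcr2 was last in both, at 0.152 ± 0.100 CPM per kb in KO and 0.160 ± 0.054 CPM per kb in FL. Every other pair of neighbours in the order had separate ranges, although in FL the lowest Clec12a library (436.9 CPM per kb) was almost level with the highest Cd47 library (436.5 CPM per kb). Exonic lengths merge all annotated transcripts, 2.184 kb for Cd96 to 11.36 kb for Il1rap, so a transcript shorter than its merged length is understated.

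**Figure D2:**
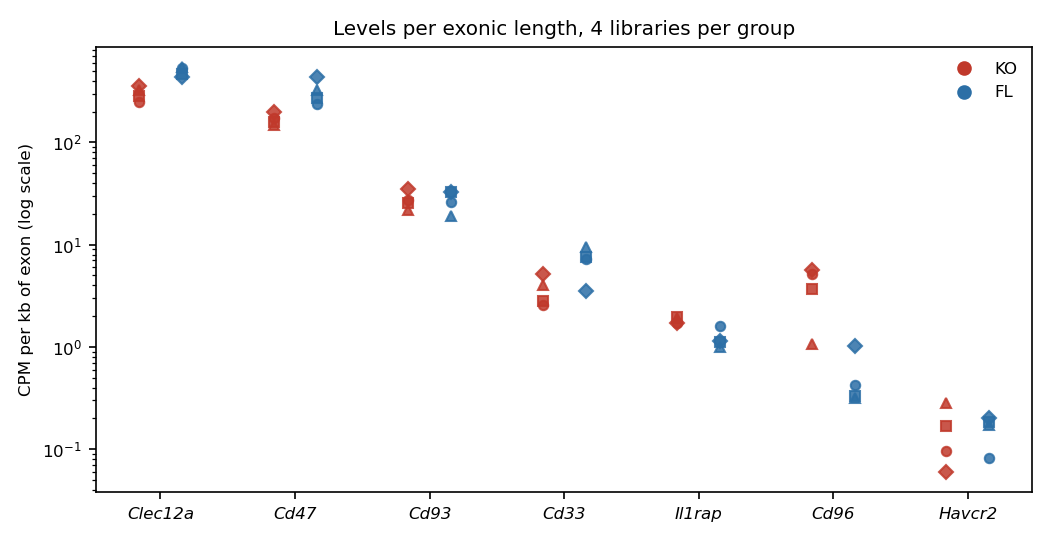
CPM per kb of exon (y axis, log scale) of the 7 surface marker transcripts (x axis, ordered by their FL mean) in the 4 KO and 4 FL libraries, with the replicate symbols circle, square, triangle and diamond for 1 to 4. Clec12a and Cd47 lie highest in both groups, and Cd96 stands near Cd33 in KO but below Il1rap in FL.

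Cd96, an immunoglobulin-like receptor that binds CD155, is on chromosome 16 from 46035657 to 46120251 (minus strand; mm10, as for the other members, all protein coding). It was at 11.2, 8.01, 2.35 and 12.3 CPM in KO replicates 1 to 4, against 0.932, 0.722, 0.694 and 2.22 CPM in FL replicates 1 to 4. Every KO library lay above every FL library, but KO replicate 3 and FL replicate 4 almost met. The means were 8.45 ± 4.44 CPM in KO and 1.14 ± 0.729 CPM in FL (SD, n = 4 each), from 1822 reads in KO and 188 in FL. The log2 fold change was 2.89 (SE 0.53, edgeR adjusted p = 0.0026), and an exact two-sided permutation test over libraries gave p = 0.0286, the smallest that 4 against 4 allows. Cd96 passed under all 17 alternatives that tested it, with log2 fold changes of 2.64 to 4.79. Without KO replicate 3, the library with the high neutrophil markers, it was 3.19. With a covariate for how many genes each library detected it was 4.79 (adjusted p = 0.036), where 1.18% of all genes passed.

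T and NK cells also express Cd96. Of their markers, 4 of 12 and 3 of 9 were tested, with 1 higher and 1 lower in the T cell list and 1 higher and 0 lower in the NK list (edgeR; also 1 and 0 at an unadjusted p under 0.05). The 12 T cell markers summed to 12.6 to 30.8 CPM in KO and 11.4 to 48.3 CPM in FL. The most abundant of them was Cd28, and Trbc2 was at 0 in all libraries. Lck, a kinase of T cell receptor signalling, rose to 1.63 to 3.34 CPM in KO, against 0.488 to 1.14 CPM in FL (log2 fold change 1.51, edgeR adjusted p = 0.010), and Cd247, a chain of that receptor, was at 0.162 to 0.413 CPM in KO and 0 to 0.067 CPM in FL and was not tested. The cytokine receptor gene Il7r fell to 0.316 ± 0.190 CPM in KO, against 1.74 ± 0.314 CPM in FL (-2.46, adjusted p = 0.0055). Cd3e reached 0.631 CPM in KO and 0.050 CPM in FL, and Cd3g reached 0.186 CPM in KO and was at 0 in FL. Cd3d overlapped, at 0.291 to 1.26 CPM in KO and 0.397 to 0.825 CPM in FL. Trac also overlapped, at 0.056 to 0.291 CPM in KO and 0.0996 to 0.222 CPM in FL. The NK receptor gene Klrd1 was at 0.065 to 0.146 CPM in KO and 0.089 to 0.600 CPM in FL. The 9 NK markers summed to 416 to 554 CPM in KO and 313 to 544 CPM in FL, most of it Nkg7 (454 ± 62.2 CPM in KO and 422 ± 109 CPM in FL), and the NK receptor gene Ncr1 reached 0.267 CPM in KO and was at 0 in FL. Klrb1c, which encodes NK1.1, was the NK marker called higher, at 0.840 ± 0.262 CPM in KO and 0.121 ± 0.147 CPM in FL. The part of T and NK cells in the Cd96 result was not tested. Of the CD96 family and its nectin ligands, 5 of 10 genes were tested, and 1 rose and 1 fell. Over all genes 13.0% were called higher and 14.9% lower. The median log2 fold change was 0.81, against 0.05 over all genes. Total-count scaling gave 3 and 1 (median 1.38), against 51.7% and 5.09% of all genes (median 0.64). Nectin4, an adhesion molecule, rose to 6.90 ± 2.27 CPM in KO, against 3.30 ± 0.708 CPM in FL (log2 fold change 1.06, adjusted p = 0.013). Nectin2, whose product binds the receptors TIGIT and CD226, fell to 1.43 ± 0.512 CPM in KO, against 4.55 ± 1.96 CPM in FL (-1.67, adjusted p = 0.0052). Pvr, which encodes the CD96 ligand CD155, averaged 14.9 ± 2.21 CPM in KO and 16.5 ± 2.91 CPM in FL (adjusted p = 0.56). Nectin3 and the receptor gene Pvrig had log2 fold changes of 1.80 and 0.81 (adjusted p 0.21 and 0.17), and the receptor genes Cd226 and Tigit had 16 and 8 reads in KO and 2 and 4 reads in FL. With genes detected as a covariate neither Nectin4 (1.56) nor Nectin2 (-2.5) passed.

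Il1rap, on chromosome 16 from 26581704 to 26730117 (plus strand), had 19.4, 22.3, 22 and 19.3 CPM in the KO libraries and 18.3, 12.7, 11.4 and 13.0 CPM in the FL libraries. All KO libraries were above all FL libraries, FL replicate 1 coming within about 1 CPM of them. Its mean was 20.7 ± 1.62 CPM in KO and 13.9 ± 3.05 CPM in FL (SD, n = 4 each), a log2 fold change of 0.58 (SE 0.16, edgeR adjusted p = 0.021; exact permutation p = 0.0286). Leaving out KO replicate 2 ended the call (0.54, adjusted p = 0.069), as did leaving out KO replicate 3 (0.55, 0.053), FL replicate 2 (0.54, 0.053) or FL replicate 3 (0.48, 0.059). Leaving out KO replicates 2 and 3 together gave 0.48 (adjusted p = 0.18), and genes detected as a covariate gave 0.40 (adjusted p = 0.66); adjusted p ranged from 6.7e-04 to 0.66 over 18 alternatives. An antisense gene, Gm20319, overlaps Il1rap exons and had 7 reads in KO and 0 in FL.

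Of the interleukin 1 receptor family and its signalling genes, 17 of 20 in the table were tested. In edgeR 5 of the 17 rose and 0 fell, with 6 and 1 at an unadjusted p under 0.05. Over all genes edgeR called 27.9%, 13.0% higher and 14.9% lower. DESeq2 called 4 higher and 0 lower, and limma-voom 5 and 1. Total-count scaling gave 14 and 0, against 51.7% and 5.09% of all genes. Leaving out KO replicates 2 and 3 gave 1 and 0, against 5.44% and 7.31% of all genes, and the covariate gave 0 and 0. The median log2 fold change was 0.36, against 0.05 over all genes, 0.94 against 0.64 under total-count scaling, and 0.04 in limma-voom. Il1rl2, the interleukin 36 receptor chain that pairs with IL1RAP, rose to 9.73 ± 1.41 CPM in KO, against 2.63 ± 0.726 CPM in FL (1.89, SE 0.23, adjusted p = 2.8e-04). Its ligand gene Il1f9 (interleukin 36 gamma) averaged 2.77 ± 3.03 CPM in KO and 0.395 ± 0.310 CPM in FL (2.79, adjusted p = 0.016). That call was lost without FL replicate 3 (adjusted p = 0.052), without KO replicates 2 and 3 (1.70, adjusted p = 0.096) and in limma-voom. DESeq2 gave Il1f9 no adjusted p. The value was 1.66 without KO replicate 3 and 3.46 without FL replicate 4. Il18r1, a receptor chain for interleukin 18, rose by 2.60 to 0.487 ± 0.262 CPM in KO, against 0.077 ± 0.039 CPM in FL (adjusted p = 0.0064; 2.06 and adjusted p = 0.091 without KO replicates 2 and 3). The kinase gene Irak2 (0.63, adjusted p = 0.024) lost its call without KO replicate 4, FL replicate 1, 3 or 4 (0.48 to 0.63), and the cytokine gene Il1b (1.74, adjusted p = 0.033) without KO replicate 1 or 2 or FL replicate 4 (1.46, 1.85 and 1.52), with 2.33 without FL replicate 1. Both Irak2 and Il1b also lost their calls without KO replicates 2 and 3 together (0.76 and 2.01, edgeR adjusted p = 0.059 and 0.075). With the covariate the values of Il1rl2, Il18r1, Irak2, Il1b and Il1f9 were 1.54, 1.29, 0.92, 2.5 and 0.20, and 0 of these 5 passed. Of the other receptor chains that use or resemble IL1RAP, Il1r1 averaged 6.46 ± 3.01 CPM in KO and 10.1 ± 4.67 CPM in FL (adjusted p = 0.22). Il1rl1 averaged 0.770 ± 0.831 CPM in KO and 0.188 ± 0.167 CPM in FL (adjusted p = 0.19), and Il18rap 25.3 ± 1.90 CPM in KO and 16.9 ± 7.17 CPM in FL (adjusted p = 0.12). The adaptor gene Myd88 had a log2 fold change of -0.05 (adjusted p = 0.83).

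Clec12a, on chromosome 6 from 129342691 to 129365303 (plus strand), was the most abundant of the 7 transcripts. Its level was 1378, 1585, 1808 and 1971 CPM in the KO libraries and 2927, 2548, 2996 and 2415 CPM in the FL libraries. No KO library reached the lowest FL library. The means of 1686 ± 259 CPM in KO and 2722 ± 284 CPM in FL (SD, n = 4 each) gave a log2 fold change of -0.69 (SE 0.14, edgeR adjusted p = 0.0052; exact permutation p = 0.0286). It remained past the threshold with each library left out in turn (-0.79 to -0.61). Under total-count scaling the groups overlapped, with 2070.1 ± 334 CPM of the total count in KO and 2234 ± 408 in FL, and the log2 fold change of -0.11 was not called (adjusted p = 0.56), against a median of 0.64 over all genes. The call was also lost without KO replicates 2 and 3 together (-0.70, adjusted p = 0.064) and with genes detected as a covariate (-0.65, adjusted p = 0.41); adjusted p ranged from 4.2e-05 to 0.56 over 18 alternatives.

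Of 13 tested C-type lectin receptor genes of myeloid cells, 1 rose and 1 fell. Total-count scaling gave 6 and 1, against 51.7% and 5.09% of all genes. DESeq2 gave 1 and 2, and limma-voom and the unadjusted edgeR p under 0.05 each 2 and 3. The 13 had a median log2 fold change of 0.15 against 0.05 over all genes, of which 13.0% were called higher and 14.9% lower. Clec5a, whose receptor signals through DAP12, rose to 31.8 ± 3.71 CPM in KO, against 7.46 ± 1.71 CPM in FL (2.09, SE 0.18, adjusted p = 4.7e-05), and also passed with genes detected as a covariate. Olr1, the oxidised lipoprotein receptor LOX-1 encoded in the same receptor cluster as Clec12a, fell to 25.4 ± 12.6 CPM in KO, against 81.5 ± 18.0 CPM in FL (-1.68, adjusted p = 0.0029), and was at -2.18 and not called with the covariate. The inhibitory receptor gene Clec4a2 had -0.96 and Clec4a1 -1.24 (adjusted p 0.066 and 0.090).

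Cd33, on chromosome 7 from 43524216 to 43544428 (minus strand), had 19.9, 22.1, 31.4 and 40.5 CPM in the KO libraries and 56.7, 59.3, 73.4 and 27.2 CPM in the FL libraries. The groups overlapped, because FL replicate 4 lay below KO replicates 3 and 4. The mean was 28.5 ± 9.44 CPM in KO and 54.2 ± 19.4 CPM in FL (SD, n = 4 each), with a log2 fold change of -0.93 (SE 0.29, edgeR adjusted p = 0.037; exact permutation p = 0.0857). This is the least stable of the 5 calls: it held under 7 of 18 alternatives (adjusted p 1.9e-07 to 0.66). Without KO replicate 1, 2 or 3 the value was -0.80, -0.82 or -0.98, and without FL replicate 1, 2 or 3 it was -0.92, -0.88 or -0.76, and none of these passed. It also lost the call with the stricter filter (-0.86), under total-count scaling (-0.37), with the covariate (-0.70) and without KO replicates 2 and 3 together (-0.84), while without FL replicate 4 it was -1.17 (adjusted p = 0.0052).

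Of 5 tested genes of the Siglec family, to which CD33 belongs, 1 rose and 1 fell in edgeR, also under total-count scaling. Over all genes edgeR called 13.0% higher and 14.9% lower, and 51.7% and 5.09% under total-count scaling. DESeq2 called 1 higher and 2 lower, limma-voom 1 and 3, and the unadjusted edgeR p under 0.05 gave 1 and 3. Leaving out KO replicates 2 and 3 gave 0 and 1, against 5.44% and 7.31% of all genes. Siglecf, known from mouse eosinophils, fell to 35.0 ± 15.2 CPM in KO, against 106 ± 19.8 CPM in FL (-1.60, SE 0.28, adjusted p = 0.0020), while 6 of the other 7 tested eosinophil markers rose. Siglecg, an inhibitory receptor gene best known in B cells, rose to 53.4 ± 4.22 CPM in KO, against 31.8 ± 10.5 CPM in FL (0.75, adjusted p = 0.032), a call lost without KO replicate 1, 2 or 4 (0.71, 0.78 and 0.70) or without KO replicates 2 and 3 together (0.85, adjusted p = 0.092). Siglece had -0.54 and Mag, which encodes a glycoprotein of myelin, -0.92 (adjusted p 0.12 and 0.050, neither called). With the covariate Siglecf (-1.19) and Siglecg (0.99) did not pass.

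Cd47, on chromosome 16 from 49800533 to 49915010 (plus strand), had 1080.2, 996, 936 and 1255 CPM in the KO libraries and 1489, 1687, 2035 and 2739.5 CPM in the FL libraries. The groups did not overlap, and the FL libraries spread more widely. The mean was 1067 ± 139 CPM in KO and 1987 ± 549.9 CPM in FL (SD, n = 4 each), a log2 fold change of -0.90 (SE 0.19, edgeR adjusted p = 0.0055; exact permutation p = 0.0286). The call held with each library left out in turn (-1.03 to -0.72, the smallest without FL replicate 4). Under total-count scaling it was -0.27 (adjusted p = 0.10) and the groups overlapped, at 1309 ± 178 CPM of the total count in KO and 1584 ± 227 in FL. It was -0.46 with the covariate (adjusted p = 0.66) and -0.76 without KO replicates 2 and 3 (adjusted p = 0.085); adjusted p ranged from 4.2e-08 to 0.66 over 18 alternatives.

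Among 6 genes of the CD47 axis, 2 rose and 3 fell (total-count scaling: 2 and 1). Over all genes 13.0% were called higher and 14.9% lower (total-count scaling: 51.7% and 5.09%). The median log2 fold change of the 6 was -0.24, against 0.05 over all genes. Sirpa, the CD47 receptor on myeloid cells, fell to 103 ± 21.9 CPM in KO, against 185 ± 30.7 CPM in FL (-0.84, SE 0.17, adjusted p = 0.0038). That call was lost under total-count scaling (-0.25), with the covariate (-0.49) and without KO replicates 2 and 3 (-0.69). Calr, which encodes calreticulin, an endoplasmic reticulum chaperone that promotes phagocytosis when exposed on the cell surface, fell to 1954 ± 199 CPM in KO, against 4548 ± 984 CPM in FL (-1.22, adjusted p = 4.7e-04), also under total-count scaling (-0.61). Lrp1, its receptor on phagocytes, rose to 16.9 ± 2.76 CPM in KO, against 9.87 ± 1.63 CPM in FL (0.77, adjusted p = 0.0071). Thbs1, the secreted CD47 ligand thrombospondin 1, had 174 reads in KO and 2 reads in FL (0.890 ± 0.316 and 0.012 ± 0.025 CPM; adjusted p = 5.1e-04), so its fold rests on almost no FL reads (log2 fold change 5.91, and 8.37 without FL replicate 3). Qpctl, an enzyme that modifies CD47 for SIRP-alpha binding, had -0.35 (adjusted p = 0.046), a call lost under 13 of 18 alternatives. Total-count scaling turned its direction (0.23). It did not pass without KO replicate 1, 2 or 4 or FL replicate 1, 2 or 3 (-0.39 to -0.31), without KO replicates 2 and 3 together (-0.38), with upper-quartile factors (-0.32), with the stricter filter (-0.29), without a filter (-0.40), with the replicate block (-0.36) or with the covariate (-0.42). With the covariate Calr (-1.40), Lrp1 (1.25) and Thbs1 (5.16) did not pass.

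Cd93, on chromosome 2 from 148436640 to 148443563 (minus strand), had 180.3, 170.4, 144 and 232 CPM in the KO libraries and 174, 218, 128 and 217 CPM in the FL libraries. The groups overlapped almost completely, with replicate 3 the lowest of each. The means of 182 ± 36.6 CPM in KO and 184 ± 42.6 CPM in FL (SD, n = 4 each) gave a log2 fold change of -0.02 (95% interval -0.44 to 0.39, edgeR adjusted p = 0.95; exact permutation p = 0.971). Under total-count scaling it was called higher (0.57, adjusted p = 0.026), close to the median of 0.64 over all genes. Endothelial cells also express Cd93. The 7 endothelial markers summed to 192 to 341 CPM in KO and 184 to 361 CPM in FL, most of it from Pecam1 (235.5 ± 68.4 CPM in KO and 293 ± 81.0 CPM in FL), and Cdh5, a defining endothelial gene, reached 0.175 CPM in KO and 0.150 CPM in FL. Of 2 tested, 1 rose and 0 fell in edgeR (also 1 and 0 at an unadjusted p under 0.05). Among all genes edgeR called 13.0% higher and 14.9% lower. The gene that rose was Vwf, the von Willebrand factor gene that megakaryocytes also express. Vwf was at 2.75 ± 0.461 CPM in KO and 1.23 ± 0.224 CPM in FL (1.16, adjusted p = 0.0060).

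Among the 9 genes of the CD93 family and its ligands, 4 were tested. In edgeR, DESeq2 and limma-voom alike 0 rose and 2 fell, also at an unadjusted p under 0.05. Total-count scaling gave 1 and 1, against 51.7% and 5.09% of all genes. The median log2 fold change was -0.75, against 0.05 over all genes, of which 13.0% were called higher and 14.9% lower. Thbd, the related anticoagulant receptor thrombomodulin, fell to 52.5 ± 11.6 CPM in KO, against 107 ± 28.6 CPM in FL (-1.02, SE 0.21, adjusted p = 0.0047); total-count scaling gave -0.42 and no call. C1qbp, a mostly mitochondrial protein that binds complement C1q, fell to 131 ± 26.9 CPM in KO, against 281 ± 61.7 CPM in FL (-1.10, adjusted p = 0.0020). Dag1, which encodes dystroglycan, had 0.20 and the adaptor gene Gipc1 -0.49 (adjusted p 0.25 and 0.18). With the covariate Thbd (-0.86) and C1qbp (-1.15) did not pass.

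Havcr2, on chromosome 11 from 46454935 to 46481255 (plus strand), was close to the detection limit, with 14, 21, 32 and 10 reads in the KO libraries and 10, 20, 19 and 22 reads in the FL libraries. The levels of 0.260, 0.458, 0.777 and 0.162 CPM in KO and 0.222, 0.498, 0.471 and 0.550 CPM in FL overlapped. The log2 fold change was -0.09 (95% interval -1.26 to 1.08, edgeR adjusted p = 0.92, exact permutation p = 0.80), so changes within that interval are not excluded. It was -2.68 with genes detected as a covariate, -1.03 without KO replicates 2 and 3 together and 0.52 under total-count scaling, not called in any of them. Of the TIM-3 ligand and family genes, 5 of 7 were tested. In edgeR, DESeq2 and limma-voom alike 0 rose and 2 fell, also at an unadjusted p under 0.05. Total-count scaling gave 2 and 1, against 51.7% and 5.09% of all genes. The median log2 fold change was -0.33, against 0.05 over all genes, of which 13.0% were called higher and 14.9% lower. Hmgb1, a chromatin protein that is also a TIM-3 ligand, fell to 407 ± 63.8 CPM in KO, against 778 ± 122 CPM in FL (-0.93, SE 0.15, adjusted p = 0.0014; -0.34 and not called under total-count scaling). Timd2, a related mouse receptor gene, fell to 0.443 ± 0.196 CPM in KO, against 1.54 ± 0.321 CPM in FL (-1.81, adjusted p = 0.0040). The galectin gene Lgals9 averaged 276 ± 16.5 CPM in KO and 312 ± 17.0 CPM in FL, and Ceacam1 45.8 ± 12.9 and 57.5 ± 17.9 CPM (adjusted p 0.21 and 0.35). With the covariate Hmgb1 (-1.32) and Timd2 (-2.88) did not pass.

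**Figure D3:**
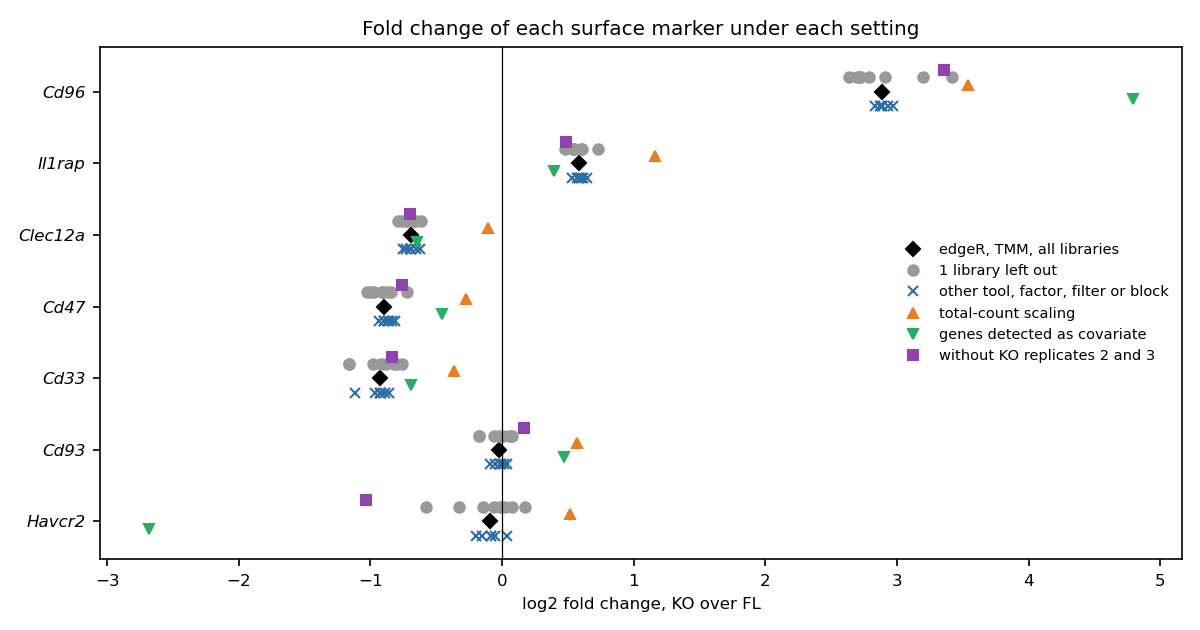
Log2 fold change of KO over FL (x axis) of each surface marker (rows) under every setting tried, with a vertical line at 0. Black diamonds are edgeR with TMM and all libraries, and the legend names the others. Cd96 and Il1rap lie right of 0 and Clec12a, Cd47 and Cd33 left of 0 under every setting, while total-count scaling (orange triangles) places Clec12a at -0.11 and Cd93 at 0.57.

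Because scaling shifts all genes together, counts of the members were also set against those of Clec12a in the same library, a choice made after the values were seen, so no test is given. Cd96 had 5.17 ± 2.87 counts per 1000 Clec12a counts in KO and 0.439 ± 0.324 in FL (SD, n = 4 each), and the lowest KO library (1.30) lay above the highest FL library (0.921). Il1rap had 12.5 ± 2.04 per 1000 in KO and 5.11 ± 1.02 in FL, from 9.77 to 14.1 and from 3.79 to 6.25, with no overlap. Those for Cd93 were 109 ± 21.6 per 1000 in KO and 69.4 ± 22.2 in FL and overlapped. Cd47, with 642 ± 109 per 1000 in KO and 746 ± 270.0 in FL, and Cd33, with 16.6 ± 3.05 and 19.6 ± 5.97, overlapped as well. These ratios show unequal change within a library and do not say which of a pair changed.

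**Figure D4:**
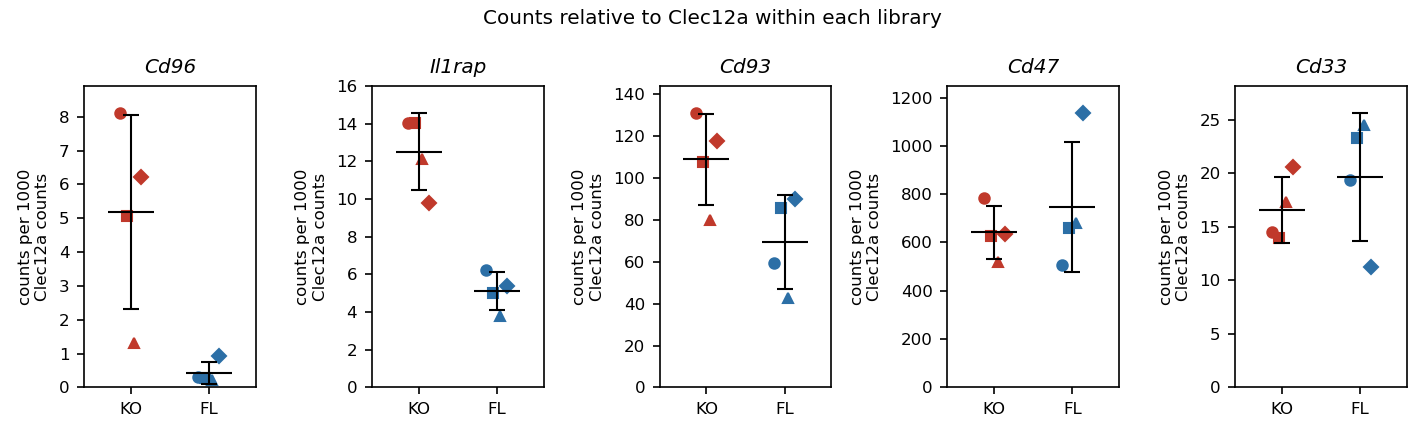
Counts of 5 surface markers per 1000 Clec12a counts in the same library (y axis, from 0) in the 4 KO and 4 FL libraries. Circles, squares, triangles and diamonds are replicates 1 to 4, and black bars the mean and SD. Cd96 and Il1rap separate the groups, and Cd93, Cd47 and Cd33 overlap.

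Some myeloid receptors of the C-type lectin and Siglec families signal through adaptors with activating motifs or recruit phosphatases through inhibitory motifs. The genes for these steps are not the pathway of every surface marker described here. Of 12 tested genes for such adaptors, kinases and phosphatases, 0 rose and 5 fell in edgeR, DESeq2 and limma-voom (0 and 6 at an unadjusted p under 0.05). Over all genes edgeR called 13.0% higher and 14.9% lower. The median log2 fold change of the 12 was -0.29, against 0.05 over all genes. Total-count scaling gave 5 higher and 4 lower (median 0.29), against 51.7% and 5.09% of all genes (median 0.64). Leaving out KO replicates 2 and 3 gave 0 and 4, against 5.44% and 7.31% of all genes. Ptpn6, the phosphatase SHP-1 that binds inhibitory motifs, fell to 332 ± 44.3 CPM in KO, against 643 ± 39.8 CPM in FL (-0.96, SE 0.12, adjusted p = 3.5e-04). The adaptor genes Tyrobp (DAP12) and Fcer1g fell to 759 ± 162 and 294 ± 83.7 CPM in KO, against 1672 ± 217 and 854 ± 108 CPM in FL (-1.14 and -1.54, adjusted p = 6.4e-04 and 3.0e-04). Inppl1, an inositol phosphatase gene, fell by 1.62 (adjusted p = 0.0067), and these 4 genes were also called lower under total-count scaling. Csk, a kinase that restrains Src family kinases, fell by 0.61 (adjusted p = 0.013), but scaled by total counts it was at -0.01 and without KO replicates 2 and 3 at -0.39, not called in either. Inpp5d, the related phosphatase SHIP-1, and the kinase gene Lyn had 0.18 and -0.23 (adjusted p 0.33 and 0.20). With the covariate 0 of the 12 passed, with Ptpn6, Tyrobp, Fcer1g and Inppl1 at -0.86, -0.65, -1.20 and -2.81, and Csk at 0.00.

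Clec12a, Cd33 and these adaptors are also expressed by mature myeloid cells. The 12 monocyte and macrophage markers summed to 2847 to 3878 CPM in KO and 4886 to 7872 CPM in FL, 0 of them at 0 in all libraries, and the most abundant was Ly6c2. Of 10 tested, 3 rose and 4 fell, against 13.0% higher and 14.9% lower over all genes. Csf1r, a defining gene of that lineage, was at 166 to 285 CPM in KO and 105 to 149 CPM in FL, the opposite order. Summed markers of dendritic cells (8 genes) were at 32.2 to 80.3 CPM in KO and 89.2 to 330.0 CPM in FL. Most of that sum was Flt3, at 25.9 to 77.0 CPM in KO and 77.5 to 326 CPM in FL. Of 6 tested dendritic cell markers, 1 rose and 1 fell, against the same shares of all genes. The part of these cell types in the lower values of Clec12a, Cd33 and the adaptors was not tested.

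Of 16 tested other surface antigens of AML, 2 rose and 6 fell, against 13.0% higher and 14.9% lower over all genes. The median log2 fold change of the 16 was -0.23, against 0.05 over all genes. Total-count scaling gave 6 higher and 2 lower (median 0.36), against 51.7% and 5.09% of all genes (median 0.64). Limma-voom gave 4 and 8, DESeq2 3 and 7, and the unadjusted edgeR p under 0.05 4 and 8. Leaving out KO replicates 2 and 3 gave 2 and 1, against 5.44% and 7.31% of all genes. Cd27, a receptor of the tumour necrosis factor family, rose to 40.3 ± 25.4 CPM in KO, against 5.20 ± 0.724 CPM in FL (2.96, SE 0.39, adjusted p = 4.0e-04), and passed with the covariate as well. Procr, a receptor for protein C found on stem cells, had 178 reads in KO and 37 in FL (1.85, adjusted p = 0.048). Its call was lost without KO replicate 1, 2 or 4 or any 1 FL library (1.42 to 2.11). Flt3, a cytokine receptor and drug target, fell to 54.4 ± 21.5 CPM in KO, against 199.5 ± 137 CPM in FL (-1.87, adjusted p = 0.016), not called without FL replicate 3 (-1.60) or KO replicates 2 and 3 (-1.52). Cd52, a small glycoprotein targeted in lymphoid disease, fell to 78.7 ± 28.8 CPM in KO, against 194 ± 40.2 CPM in FL (-1.30, adjusted p = 0.0023), also under total-count scaling. The receptor genes Cd244a and Lilrb4a and the tetraspanin gene Cd81 were called lower at -0.99, -1.35 and -0.46 (adjusted p = 0.0073, 0.012 and 0.021). None of these 3 passed when scaled by total counts (-0.40, -0.77 and 0.12) or without KO replicates 2 and 3 (-0.69, -1.11 and -0.49), nor Cd81 without KO replicate 2 (-0.47, adjusted p = 0.057). Il3ra, the interleukin 3 receptor chain CD123, fell by 0.76 (adjusted p = 0.034), a call lost without KO replicate 2 or 4 or FL replicate 3 or 4 (-0.72, -0.64, -0.64 and -0.68), and also when scaled by total counts (-0.14) or without KO replicates 2 and 3 (-0.82). Cd44, a hyaluronan receptor, and Adgrg1, the adhesion receptor GPR56, had -0.34 and 0.19 (adjusted p 0.054 and 0.47). With the covariate Flt3 was at -0.25, Cd244a at -0.00 and Cd52 at -0.72, none called.

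**Figure D5:**
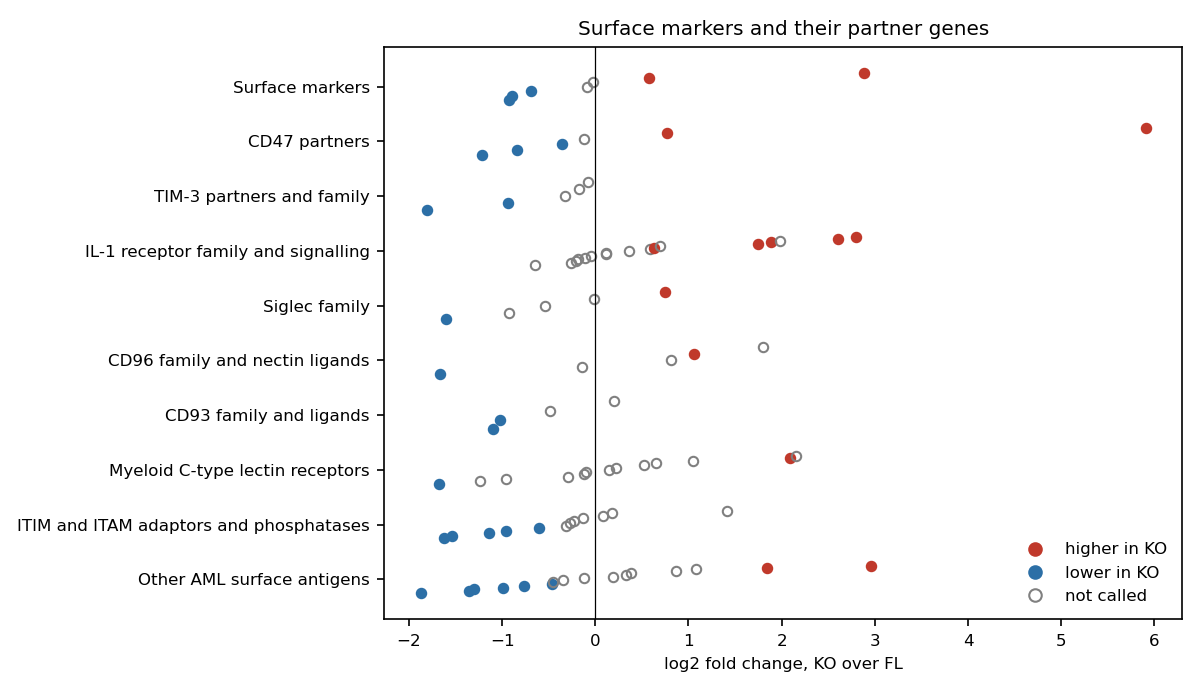
Log2 fold change of KO over FL (x axis) of the 7 surface markers (top row) and of the tested genes of 9 partner lists (rows below), 1 point per gene. Filled red points were called higher and filled blue points lower in KO, and open points were not called. Thbs1, at 5.91, rests on 2 FL reads. The interleukin 1 row has 5 red and 0 blue points, and the adaptor row 0 red and 5 blue. Over all genes 13.0% were called higher and 14.9% lower.

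The members also varied within groups, and not together. KO replicate 3 was lowest of its group in Cd96, Cd47 and Cd93 and highest in Havcr2, and FL replicate 4 was highest of its group in Cd96, Cd47 and Havcr2 and lowest in Clec12a and Cd33. To name genes with the most similar pattern, the root mean square difference of centred log2(CPM + 0.5) over the 8 libraries was taken. It was compared over 9227 genes with a mean of 5 CPM or more. The added 0.5 flattens differences at low levels, as for Havcr2 and for Cd96 in FL, so their nearest genes partly reflect it. Nearest to Cd96 were Cdk19, a Mediator kinase (0.265), and the peptidase gene Dpp4 (0.344), with log2 fold changes of 2.13 and 2.14, against 2.89 for Cd96. Cd47 was nearest to the ribosomal protein genes Rpl34 (0.058) and Rpl31 (0.077), and Clec12a to Ndfip1, an adaptor of ubiquitin ligases (0.083), and Tmx1 (0.088). Nearest to Cd33 were Samsn1 (0.164) and Aifm2 (0.249), to Il1rap Ccdc97 (0.090) and Pik3c2a (0.094), to Cd93 Myo5a (0.075) and Sesn1 (0.091), and to Havcr2 Oip5 (0.125) and Cenph (0.13). All 8 libraries carry the division into KO and FL, which these distances contain.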

How the data were processed

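RNA was amplified by the Geo-seq method and made into transposase libraries, per the labels' protocols, which describe no molecular identifiers, so PCR copies may count as reads. The deposited table holds the authors' raw counts for 55291 symbols in 8 libraries. Tools listed in the submitters' processing notes, with no role, are HTSeq 0.13.5, Bowtie 0.12.9 and DESeq2, and the build is mm10. The deposited counts are labelled featureCounts, so the counting tool is unresolved. How the reads were annotated, stranded or shared between genes is not given there. The table's wild type columns were taken as FL, by group and number.

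KO was compared with FL by edgeR 4.0.16 (R 4.3.3) with filterByExpr, TMM and a quasi-likelihood F test without covariates. SE is the log2 fold change over the square root of F. Exact tests and the distances between gene patterns used log2(CPM + 0.5). Positions and exonic lengths came from GENCODE M21 (mm10), matched once for 96.2% of symbols. DESeq2 1.42.0, limma 3.58.1 voom, other factors, filters, covariates and left-out libraries were alternatives. The edgeR, voom and DESeq2 steps were tested on simulated data. No library was a copy of another (lowest chi-square per degree of freedom within a group 21.2).

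The members and the 9 partner and 12 marker lists were chosen with earlier results of these data known. Named genes were the members, up to 4 genes per partner list by smallest p, listed genes at 100 CPM or more, Dek, Pbx3 and 2 genes of most similar pattern per member; other genes were named after their values were seen.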

Additional observations from a re-analysis of the deposited data

Results flagged for a closer look

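Cd96 in FL replicate 4 stood apart from the other FL libraries, at 2.22 CPM against 0.694 to 0.932 CPM. It was the only value to do so among 14 sets of 4 libraries (7 genes in 2 groups), and chance alone gives about 1 in 20. Without this library the log2 fold change of Cd96 was 3.42 (edgeR adjusted p = 0.0013), against 2.89 with it.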

How the results depend on the processing

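The edgeR test called 4853 of 17418 genes and 5 of the 7 surface markers. Under total-count scaling the counts were 9898 and 3, with the filter of 5 CPM in 4 libraries 3140 and 3 (of 5 markers tested), with genes detected as a covariate 205 and 1, and without KO replicates 2 and 3 together 2342 and 1. Total-count scaling split its calls into 9012 higher and 886 lower, against 2256 and 2597 with TMM, and gave Cd93 a log2 fold change of 0.57, against -0.02. Leaving out each library in turn gave 3397 to 5033 genes and 3 to 5 surface markers. The cause of these shifts was not tested; the covariate follows the groups closely, the filter tests fewer genes, and the fit without KO replicates 2 and 3 has fewer samples. DESeq2, limma-voom, RLE and upper-quartile factors and no count filter each called the 5 markers in the same directions. Cd96 was not tested by the stricter filter. The replicate number as a block gave 4339 genes and 4 markers, Cd33 losing its call. Labels do not say that the numbers pair libraries, and same-numbered libraries deviated with correlations of -0.02 to 0.06, 1 of 4 KO libraries correlating best with its own number. Havcr2 rests on 10 to 32 reads per library. It also varied within groups, at 0.414 ± 0.271 CPM in KO and 0.435 ± 0.146 CPM in FL (SD).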
